A study of Drosophila melanogaster with 6 samples.

Results

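Cytochrome P450 genes were compared between aged and young heads of Drosophila melanogaster. The members were the genes whose single symbol in the array's probe table begins with Cyp and a digit, each read through 1 probe set, the brightest on average across the 6 arrays. This rule found 83 of the 11981 genes with at least 1 probe set to themselves. Among the 83, Cyp1 (CG9916) and Cyp40 (CG8336) encode cyclophilins, which are peptidyl-prolyl isomerases and no P450 enzymes, so that 81 P450 genes were left and are described here. The flies carried P{GawB}elavC155, a GAL4 driver inserted at elav, a gene active in neurons, in a background labelled W*, at both ages, and were kept at constant temperature under a light and dark cycle. Heads of 25-day-old (aged) flies and of 2-day-old (young) flies were each measured on 3 Affymetrix arrays, in log2 RMA values, where a difference of 1 means a 2-fold difference in signal. The sex of the flies is not given in the labels, nor is it said that arrays of 1 age came from separate collections, so the spread that p-values rest on is that between arrays and may be technical. Precision is limited by how few arrays there are.

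Cytochrome P450 enzymes are heme proteins that insert an oxygen atom into small lipophilic molecules. In insects, members of the Cyp6, Cyp9, Cyp12 and Cyp28 families and part of the Cyp4 family act on plant toxins and insecticides, while a few conserved members make or break down the moulting hormone ecdysone, build cuticular hydrocarbons or shape the cuticle and its sense organs. Microsomal P450s take electrons from NADPH-P450 reductase and cytochrome b5, and mitochondrial P450s, among them the Cyp12 family, take them from ferredoxins. In the adult head such enzymes are found in the fat body, in the support cells of the antennae and in glia. In whole heads, fewer cells of a type and less RNA per cell cannot be told apart.

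Array medians lay between 4.85 and 4.93, and the median level of all 18769 probe sets was 4.92, which served as the mark below which a probe set was taken as near background. At 155 probe sets, young replicate 2 read at least 2-fold above each of the other 5 arrays, and 1 of these belonged to a P450 gene, Cyp4g1. Of the markers of other tissues, 3 of 3 measured midgut genes (alphaTry, betaTry and Mal-A1) and 3 of 3 measured muscle genes (Act88F, fln and TpnC4) had their highest value on that array. The summed log2 value of the midgut markers was 12.8 to 13.1 on aged arrays and 13.5 to 23.9 on young arrays, and that of the muscle markers 12.0 to 12.9 on aged arrays and 14.4 to 20.4 on young arrays, of which Act88F passed as lower in aged heads (-2.17 ± 0.21). Head fat body and glia were well measured at both ages. The fat body gene apolpp stood at 12.89 on average in aged and 12.82 in young heads. The glial gene repo stood at 9.80 in aged and 9.82 in young heads. Of 6 measured fat body markers, fit fell, by 0.55, and Lsp2, apolpp, Yp1, Yp2 and Yp3 did not pass. The median difference of the 6 was -0.40, with 4 negative and 2 positive. The glial markers Gs2 and alrm fell, by 0.38 and 0.48 on the log2 scale, while repo and moody did not pass. Of 3 measured neuronal markers, brp fell, by 0.44, and elav (-0.09) and nSyb (0.30) did not pass. The photoreceptor marker trp, the only 1 of 4 listed that was measured, fell by 0.33. The haemocyte markers Hml and NimC1 rose, by 0.69 and 0.60, and He did not pass. The ages also differed in labelling: the 3' minus 5' difference over 4 probe set pairs for fly transcripts was 1.51 to 1.56 on aged arrays and 1.92 to 2.19 on young arrays (two-sided exact permutation p = 0.1, the smallest that 3 arrays against 3 can give). The part of these differences in the results below was not tested, and neither RNA quality nor labelling can be told apart from age.

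P450 genes that changed were mostly higher in aged heads. Of 81 genes, 32 rose, 4 fell and 45 did not pass (limma over all probe sets, Benjamini-Hochberg adjusted p at 0.05). The share that rose was 39.5%, against 15.8% of all genes, and the share that fell 4.94%, against 10.7% of all genes. On all 3 aged arrays the values lay above all 3 young arrays for 42 of the 81 genes, where 26.5% of all genes did so, and below them for 8, where 21.0% of all genes did so. The median difference was 0.21 on the log2 scale over the 81 genes and -0.0031 over all genes. The changes were small: the 32 rises ran from 0.30 to 1.86 with a median of 0.55, and 4 rises and 1 fall reached 2-fold. With Cyp1 and Cyp40 counted, which rose by 0.27 ± 0.07 and 0.52 ± 0.10 (SE), the counts by the symbol alone were 34 higher and 4 lower of 83. No P450 gene passed a limma test against a 2-fold threshold (0 of 81, with 3 at an unadjusted p under 0.05).

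**Figure D1:**
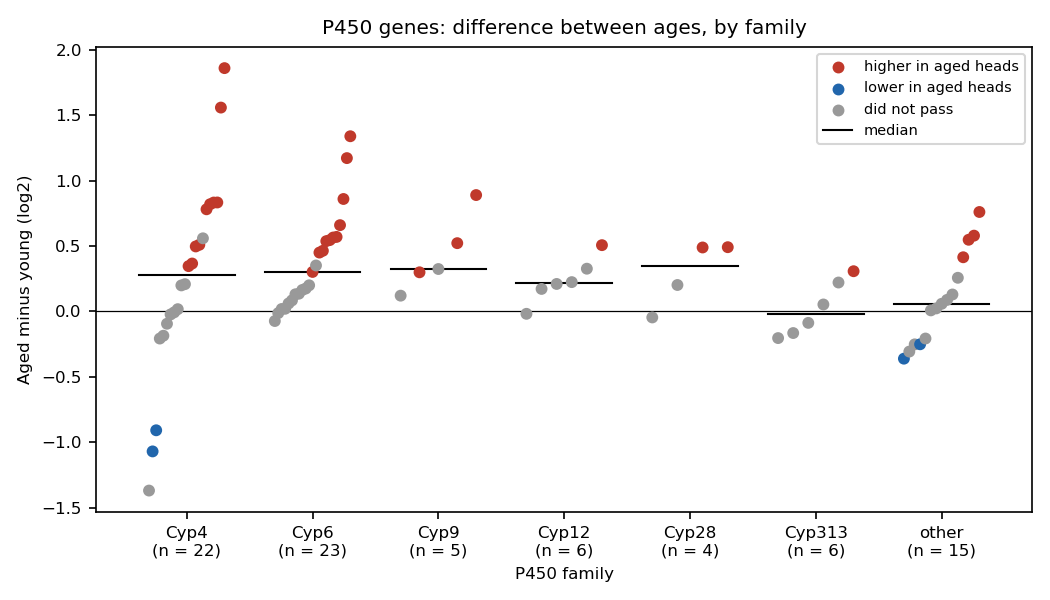
Difference between aged and young heads (log2, vertical axis) for each of the 81 P450 genes, grouped by family along the horizontal axis; red points passed as higher in aged heads, blue points as lower, grey points did not pass, and black lines are family medians. Rises reach 1.86 in Cyp4 and 1.34 in Cyp6, and the lowest grey point in Cyp4 is Cyp4g1, at -1.37.

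Most rises were at probe sets above the range near background. Of 58 P450 genes whose mean over all arrays was at or above the median level, 29 rose (50%), 3 fell and 26 remained short of the threshold, against 23.05% higher and 14.1% lower among the 7537 genes of all kinds at that level. Of the 23 P450 genes below it, 3 rose and 1 fell, with 3.49% and 4.95% of all genes doing so there. Between the median and the 75th percentile (7.81), 16 of 29 rose and 2 fell, set against 23.8% and 10.7% of all genes at that level, and above the 75th percentile 13 of 29 rose and 1 fell, against 22.3% and 17.3%. Differences of genes near background can be compressed, so that the difference of a gene that starts or ends there may be larger than measured.

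**Figure D2:**
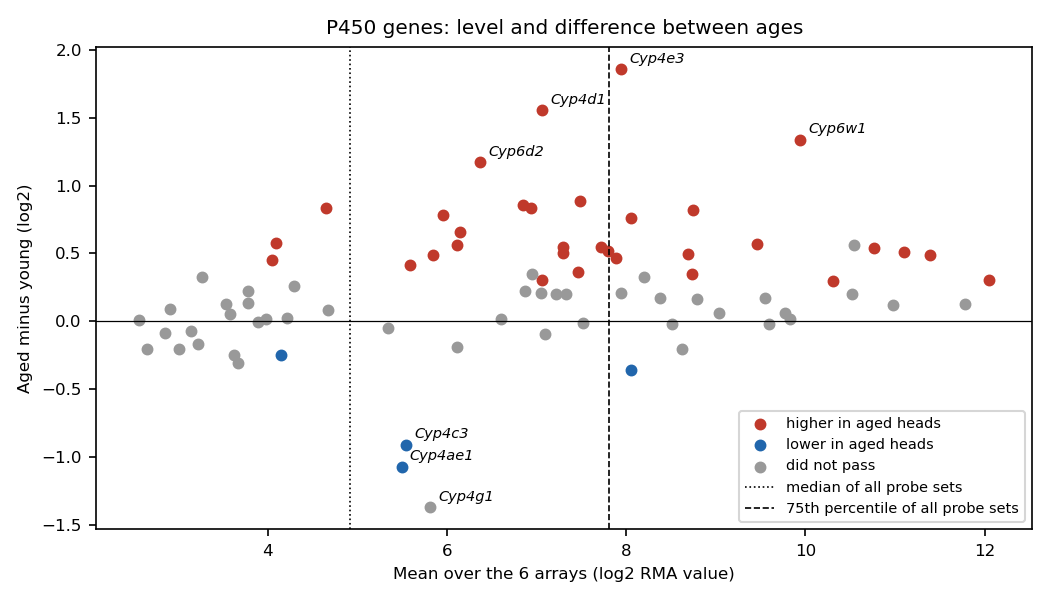
Difference between aged and young heads (log2, vertical axis) against the mean over the 6 arrays (log2 RMA value, horizontal axis) for the 81 P450 genes, with calls in colour and vertical lines at the median (4.92, dotted) and the 75th percentile (7.81, dashed) of all probe sets. Red points are mostly to the right of the dotted line, where 29 of 58 genes rose, and sparse to its left, where 3 of 23 did.

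The Cyp4 family held both the steepest rises and the steepest falls among P450 genes that passed. Of its 22 genes, 10 rose, 2 fell and 10 did not pass, with a median difference of 0.28. The share that rose was 45.5%, against 15.8% of all genes. The share that fell was 9.09%, near the 10.7% of all genes. Cyp4e3 (CG4105), which in fly Malpighian tubules takes part in insecticide tolerance and defence against oxidative stress, stood at 8.66, 8.62 and 9.35 in aged heads, against 6.97, 7.12 and 6.96 in young heads. All aged arrays lay above all young arrays, and aged replicate 3 was the highest by far. The rise was 3.63-fold (1.86 ± 0.19 log2, difference ± SE, limma adjusted p = 0.00109), and without aged replicate 3 it was 1.62 ± 0.08. Cyp4d1 (CG3656) stood at 7.83, 7.73 and 7.96 in aged heads, against 6.16, 6.30 and 6.38 in young heads. These groups did not overlap either, and the rise was 2.94-fold (1.56 ± 0.09, adjusted p = 1.05e-04).

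The other Cyp4 genes that rose changed by less than 2-fold. Cyp4ac2 (CG17970) rose by 0.83 ± 0.07, Cyp4p1 (CG10842) by 0.82 ± 0.07 and Cyp4p2 (CG1944) by 0.78 ± 0.09. Cyp4d14 (CG3540), at 5.07 ± 0.08 in aged and 4.24 ± 0.29 in young heads (mean ± SD, n = 3 arrays), rose by 0.83 ± 0.14 (SE). This rise may be compressed, since the young level lay below the median level. Cyp4e2 (CG2060), a close relative of Cyp4e3, rose by 0.51 ± 0.07, Cyp4d20 (CG16761) by 0.50 ± 0.09 and Cyp4d8 (CG4321) by 0.37 ± 0.07. Cyp4ac1 (CG14032) rose by 0.35 ± 0.09 on all 6 arrays, but did not pass without young replicate 2 (adjusted p = 0.0610) or 3 (0.0850), without aged replicate 1 (0.104) or 2 (0.0942), or with arrays centred on their medians (0.0531). Within subfamilies, the third Cyp4e gene, Cyp4e1, was at 0.20 ± 0.08 and the third Cyp4p gene, Cyp4p3, at 0.02 ± 0.12, and neither passed. Those 2 were named after their values were seen.

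Falls in the Cyp4 family came from Cyp4ae1 and Cyp4c3. Cyp4ae1 (CG10755) stood at 4.96, 4.89 and 5.03 in aged heads, against 5.90, 6.14 and 6.04 in young heads. The aged values lay at the median level of all probe sets, so the fall of 1.07 ± 0.08 (adjusted p = 3.82e-04) may be compressed. Cyp4c3 (CG1438) stood at 5.11, 5.16 and 5.0 in aged heads, against 6.04, 5.89 and 6.07 in young heads. Its aged arrays again lay below all young arrays, near the median level, and the difference was -0.91 ± 0.08 (adjusted p = 6.01e-04). The calls of Cyp4ae1 and Cyp4c3 held in each fit with 1 array left out.

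**Figure D3:**
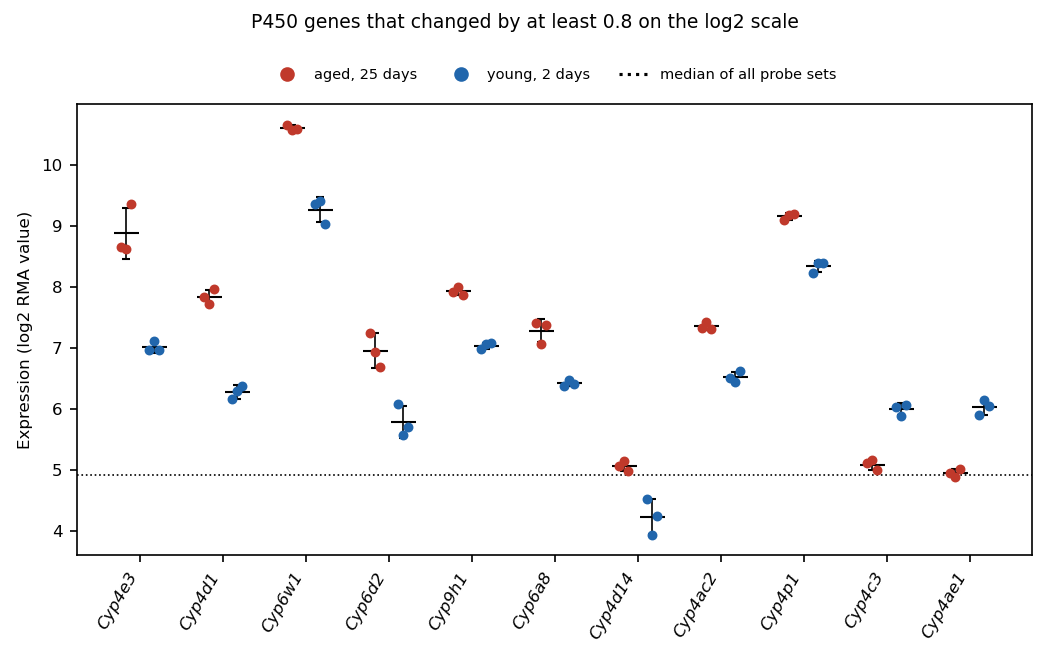
Expression (log2 RMA value, vertical axis) on each array for the 11 P450 genes that passed with a difference of at least 0.8 in either direction, ordered from the largest rise to the largest fall; red points are aged arrays, blue points young arrays, black bars the mean ± SD of 3 arrays, and the dotted line the median of all probe sets (4.92). Aged and young points do not overlap for any gene shown, and aged Cyp4ae1, Cyp4c3 and Cyp4d14 lie near the dotted line, with young Cyp4d14 below it.

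In the Cyp6 family, which holds most of the P450s tied to insecticide resistance in flies, 11 of 23 genes rose, 0 fell and 12 did not pass, with a median difference of 0.30 (limma, with 12 higher and 0 lower at an unadjusted p under 0.05). The share that rose was 47.8%, where 15.8% of all genes rose and 10.7% fell. Cyp6w1 (CG8345), which has been linked to DDT resistance, stood at 10.66, 10.57 and 10.59 in aged heads, against 9.36, 9.41 and 9.03 in young heads. The aged arrays were tightly grouped and all above the young arrays, and the rise was 2.53-fold (1.34 ± 0.11, adjusted p = 4.16e-04). Cyp6d2 (CG4373) stood at 7.25, 6.93 and 6.68 in aged heads, against 6.08, 5.57 and 5.70 in young heads. Its arrays were more widely spread but did not overlap, and it rose 2.25-fold (1.17 ± 0.18).

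The Cyp6a subfamily, much of which sits in a single tandem array of genes, had 5 of 13 members that rose and 0 that fell (6 higher and 0 lower at an unadjusted limma p under 0.05). The share that rose was 38.5%, where 15.8% of all genes rose and 10.7% fell. Cyp6a8 (CG10248), an inducible P450 overexpressed in DDT-resistant strains, stood at 7.40, 7.06 and 7.38 in aged heads, against 6.37, 6.48 and 6.42 in young heads, with no overlap, and rose by 0.86 ± 0.10. Cyp6a14 (CG8687) stood at 6.50, 6.42 and 6.52 in aged heads, against 5.68, 5.88 and 5.90 in young heads, and rose by 0.66 ± 0.08. Cyp6a13 (CG2397), Cyp6a21 (CG10247) and Cyp6a22 (CG10240) rose by 0.57 ± 0.07, 0.55 ± 0.07 and 0.46 ± 0.08. For Cyp6a2 (CG9438), the other classical gene of DDT resistance in this subfamily, the difference of 0.16 ± 0.08 was short of the threshold (adjusted p = 0.180). Cyp6a20 (CG10245), which modulates aggression between males, was at 8.61, 8.03 and 8.75 in aged heads, against 8.58, 8.14 and 8.13 in young heads. Its ages overlapped and it did not pass (0.18 ± 0.20, adjusted p = 0.588).

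Among the other Cyp6 genes, Cyp6g1 (CG8453), whose overexpression gives resistance to DDT and imidacloprid, rose by 0.54 ± 0.08, with 11.00, 11.16 and 10.94 in aged heads, against 10.54, 10.45 and 10.49 in young heads. Its neighbour Cyp6g2 (CG8859) was near background, at 3.99 ± 0.22 in aged and 3.97 ± 0.32 in young heads (SD, n = 3 arrays), and did not pass. Cyp6v1 (CG1829) rose by 0.56 ± 0.09. A further probe set, shared by Cyp6v1 and shn, stood at 0.63 ± 0.20 and did not pass (adjusted p = 0.0620). Cyp6d4 (CG12800) rose by 0.30 ± 0.08 and Cyp6t3 (CG8457), needed for ecdysone synthesis in the larval prothoracic gland, by 0.45 ± 0.12 within the range near background (4.28 on average in aged and 3.83 in young heads), but these calls were the least stable of the family. Cyp6d4 lost its call whichever array was left out, except young replicate 2 (adjusted p = 0.0679 to 0.121), and with arrays centred on their medians (0.0543). Cyp6t3 lost its call without young replicate 1 (0.0533), young replicate 3 (0.0934), aged replicate 1 (0.0877) and aged replicate 3 (0.0719), each left out in turn. Cyp6d5 (CG3050), at 11.85 ± 0.04 in aged and 11.72 ± 0.05 in young heads, showed a difference of 0.13 ± 0.06, short of the threshold (adjusted p = 0.195).

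All 5 Cyp9 genes had a positive difference, and 3 rose (60%, where 15.8% of all genes rose). Cyp9h1 (CG17577) stood at 7.92, 8.0 and 7.87 in aged heads, against 6.98, 7.06 and 7.08 in young heads. The groups were tight and well apart, and the rise was 0.89 ± 0.07 (adjusted p = 3.28e-04). Cyp9b1 (CG4485) rose by 0.52 ± 0.07, with 8.03, 8.07 and 8.07 in aged heads, against 7.61, 7.52 and 7.47 in young heads. Its neighbour Cyp9b2 (CG4486) rose by 0.30 ± 0.08, with 10.51, 10.52 and 10.34 in aged heads, against 10.18, 10.22 and 10.07 in young heads. The call of Cyp9b2 was lost without young replicate 1 (adjusted p = 0.0591) or 3 (0.105) and without aged replicate 1 (0.125) or 2 (0.123). It was also lost with arrays centred on their medians (0.0564) and after quantile normalization (0.0535).

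Of the 4 Cyp28 genes, 2 rose (50%, where 15.8% of all genes rose). These were the neighbours Cyp28d1 and Cyp28d2, which have been tied to nicotine resistance in flies, and they rose by the same amount. Cyp28d1 (CG10833) stood at 11.66, 11.68 and 11.58 in aged heads, against 11.22, 11.19 and 11.04 in young heads, a rise of 0.49 ± 0.08 (adjusted p = 0.00473). Cyp28d2 (CG6081) stood at 6.17, 5.98 and 6.12 in aged heads, against 5.60, 5.58 and 5.62 in young heads, a rise of 0.49 ± 0.07 (adjusted p = 0.00424). The aged arrays of each gene lay above its young arrays. The other 2 Cyp28 genes, named after their values were seen, did not pass: Cyp28a5 (CG8864) differed by 0.20 ± 0.06 (adjusted p = 0.0646) and Cyp28c1 (CG1895) by -0.05 ± 0.11.

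In the mitochondrial Cyp12 family, 1 of 6 genes rose (16.7%, near the 15.8% of all genes) and 0 fell (3 higher and 0 lower at an unadjusted limma p under 0.05). The gene was Cyp12c1 (CG4120), at 7.57, 7.53 and 7.55 in aged heads, against 6.95, 7.07 and 7.10 in young heads (0.51 ± 0.07, adjusted p = 0.00266). Cyp12a4 (CG6042), whose overexpression gives resistance to lufenuron, differed by 0.17 ± 0.08 and did not pass. Readings of Cyp12d1, a gene duplicated in the reference strain and also tied to DDT resistance, depended on the probe set. The probe set for Cyp12d1-d (CG33503) alone was near background, at 3.43 ± 0.23 in aged and 3.10 ± 0.11 in young heads, and did not pass (adjusted p = 0.101). A probe set shared by Cyp12d1-d and Cyp12d1-p, which falls outside the 81 because it has several symbols, stood at 6.89, 6.98 and 6.80 in aged heads, against 6.07, 6.40 and 5.93 in young heads, and rose by 0.76 ± 0.12 (adjusted p = 0.00604). For Cyp12e1 (CG14680), named after its values were seen, the brighter of its pair of probe sets differed by 0.21 ± 0.08 and did not pass, while the dimmer one rose by 0.40 ± 0.07.

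Of 6 Cyp313 genes, 5 lay below the median level at both ages and did not pass. The exception was Cyp313a1 (CG3360), at 12.17, 12.13 and 12.32 in aged heads, against 11.98, 11.89 and 11.82 in young heads. It rose by 0.31 ± 0.08 (adjusted p = 0.0315), so that 16.7% of the family rose, near the 15.8% of all genes. The call depended on each array except young replicate 1 (adjusted p = 0.0604 to 0.0951 when any of these was left out) and was also lost with arrays centred on their medians (0.0606).

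The remaining 15 genes belong to small families, and 4 of them rose, 2 fell and 9 did not pass. These are shares of 26.7% and 13.3%, against 15.8% higher and 10.7% lower among all genes. The neighbours Cyp309a1 (CG9964) and Cyp309a2 (CG18559) rose together. Cyp309a1 stood at 8.46, 8.65 and 8.18 in aged heads, against 7.56, 7.81 and 7.64 in young heads (0.76 ± 0.13), and Cyp309a2 stood at 7.61, 7.66 and 7.45 in aged heads, against 6.82, 7.13 and 7.12 in young heads (0.55 ± 0.10). Cyp304a1 (CG7241) stood at 4.38, 4.54 and 4.23 in aged heads, against 3.75, 3.82 and 3.84 in young heads, a rise of 0.58 ± 0.09 within the range near background. Cyp311a1 (CG1488) stood at 5.75, 5.71 and 5.91 in aged heads, against 5.16, 5.47 and 5.50 in young heads (0.41 ± 0.11). Its call was lost without aged replicate 1 (adjusted p = 0.0859), 2 (0.0712) or 3 (0.110) and with arrays centred on their medians (0.0531).

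On a list of 6 P450s tied to hormone metabolism, cuticle, bristles or the nervous system, which does not hold Cyp6t3 (counted above among the Cyp6 genes that rose), 0 rose (limma, with 0 higher and 3 lower at an unadjusted p under 0.05), 2 fell and 4 did not pass. Of all genes, 15.8% rose and 10.7% fell, and a list of 6 is too short to weigh its counts against these shares. Cyp18a1 (CG6816), the 26-hydroxylase that inactivates ecdysteroids, stood at 7.95, 7.97 and 7.69 in aged heads, against 8.08, 8.29 and 8.33 in young heads. The ages did not overlap and the fall was 0.36 ± 0.11 (adjusted p = 0.0493), and a second probe set for the gene gave -0.34 ± 0.11 (adjusted p = 0.0712). Cyp49a1 (CG18377), a mitochondrial P450, was near background at both ages, with 3.96, 4.01 and 4.11 in aged heads, against 4.26, 4.23 and 4.33 in young heads, and differed by -0.25 ± 0.07 (adjusted p = 0.0413). Neither call was stable: leaving out any array but young replicate 1 cost Cyp18a1 its call (adjusted p = 0.0775 to 0.137), and leaving out any of the 6 did so for Cyp49a1 (0.0517 to 0.149). In each fit that left out 1 array, young replicate 1 excepted, the count of P450 genes that fell was 2 in place of 4. Cyp301a1 (CG8587), which shapes the adult cuticle, differed by -0.25 ± 0.09 and Cyp303a1 (CG4163), needed for external sense organs, by 0.09 ± 0.10, each near background and neither past the threshold. Cyp4g15 (CG11715), a relative of Cyp4g1 expressed in the nervous system, was at 9.58, 9.44 and 9.74 in aged heads, against 9.81, 9.54 and 9.46 in young heads, and did not pass (-0.02 ± 0.12, adjusted p = 0.914).

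Cyp4g1 (CG3972) had the widest spread of the 81 genes. It encodes the oxidative decarbonylase that completes cuticular hydrocarbons in oenocytes, cells that lie under the cuticle of the abdomen. It stood at 4.84, 5.44 and 5.11 in aged heads, against 4.63, 10.33 and 4.55 in young heads. The value of young replicate 2 stood alone, and on the other 5 arrays the gene was close to the median level of all probe sets. With all arrays the difference was -1.37 ± 1.42 and did not pass (adjusted p = 0.540), and without young replicate 2 it turned to 0.54 ± 0.16 (adjusted p = 0.0513), which did not pass either. Cyp312a1 (CG5137) was likewise highest on young replicate 2, at 3.60, 3.60 and 3.35 in aged heads, against 3.54, 4.49 and 3.43 in young heads, and did not pass with or without it (-0.31 ± 0.26 and 0.03 ± 0.10).

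Markers of trunk tissues moved with Cyp4g1 on that array. Young replicate 2 read 8.12 for the midgut trypsin gene betaTry and 7.79 for alphaTry, while aged arrays read 3.41 to 3.59 and 3.90 to 3.92 and the other young arrays 3.50 to 3.91 and 4.01 to 4.02. The flight muscle gene TpnC4 read 5.82 there, against 2.57 to 2.69 on the other 5 arrays. The oenocyte fatty acid synthase genes FASN2 and FASN3 read 5.03 and 4.99 there, with 3.89 to 4.37 and 3.07 to 3.69 on the other 5 arrays. The oenocyte genes eloF and FarO were not highest on that array: eloF read 3.47 there, against 3.50 and 3.63 on the other young arrays, and FarO 6.47, against 6.70 and 6.73. The part of trunk tissue in the Cyp4g1 value was not tested. Without young replicate 2, 31 P450 genes were higher and 2 lower.

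**Figure D4:**
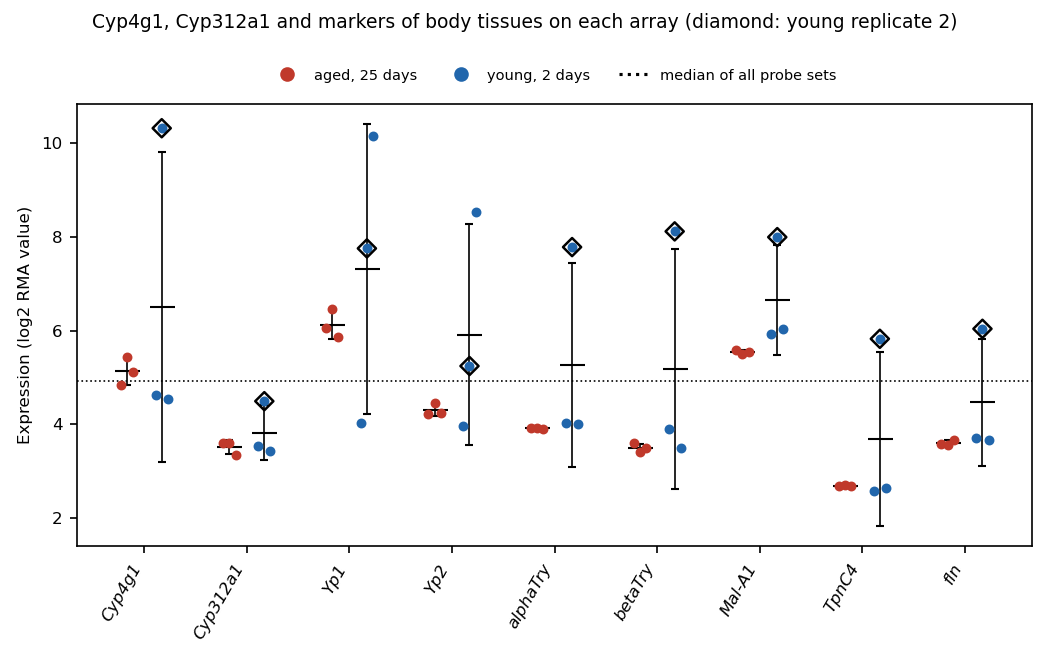
Expression (log2 RMA value, vertical axis) on each array for Cyp4g1 and Cyp312a1 and for markers of female fat body (Yp1, Yp2), midgut (alphaTry, betaTry, Mal-A1) and flight muscle (TpnC4, fln); red points are aged arrays, blue points young arrays, open diamonds mark young replicate 2, black bars are the mean ± SD of 3 arrays, and the dotted line is the median of all probe sets. Young replicate 2 is the highest array for each gene shown except Yp1 and Yp2, for which young replicate 3 is, and for Cyp4g1 it reads 10.33.

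Cyp4d21 (CG6730), also known as sxe1, is a male-biased gene of the head fat body with a part in male mating behaviour. It stood at 10.61, 10.64 and 11.23 in aged heads, against 10.39, 10.37 and 10.04 in young heads. The ages did not overlap, but the spread was wide and the gene did not pass (0.56 ± 0.18, adjusted p = 0.0661, and 0.36 ± 0.12 without aged replicate 3, adjusted p = 0.113). Female-biased yolk protein genes varied between arrays of the young group: Yp1 read 6.05, 6.47 and 5.87 in aged heads, against 4.02, 7.76 and 10.17 in young heads. Of 4 female-biased genes, fit fell, by 0.55 ± 0.11, and Yp1, Yp2 and Yp3 did not pass. The gene msl-2, listed as a male marker, stood at 7.68 on average in aged and 7.61 in young heads and did not pass. Whether its RNA level follows sex in these heads was not tested. The part of the sex of the flies in these values was not tested.

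On a list of 10 measured P450 genes tied to insecticides or plant toxins, 5 rose and 0 fell, against 15.8% and 10.7% of all genes, namely Cyp6w1, Cyp6a8, Cyp6g1, Cyp28d1 and Cyp6t3 (limma, 6 higher and 0 lower at an unadjusted p under 0.05). Of these, Cyp6t3 is better known for its part in ecdysone synthesis. The list is not complete: Cyp4e3 and Cyp28d2, described above, also have such a tie but are not on it. It was chosen with earlier results of these data known. A list of 10 is also too short to weigh its counts against the shares of all genes. The other 5, Cyp6a2, Cyp6g2, Cyp6d5, Cyp12a4 and Cyp12d1-d, differed by 0.02 to 0.33 and did not pass.

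No electron transfer partner of P450 enzymes passed. Of 4 measured electron transfer partners, 0 rose and 0 fell (limma, with 1, Cyt-b5, higher at an unadjusted p under 0.05), against 15.8% and 10.7% of all genes. Cyt-b5, which encodes the microsomal electron donor cytochrome b5, stood at 11.72, 11.62 and 11.76 in aged heads, against 11.56, 11.51 and 11.45 in young heads. Its ages did not overlap, and the difference was 0.20 ± 0.07 (adjusted p = 0.0847). The mitochondrial ferredoxin genes Fdx1 and Fdx2 differed by 0.09 ± 0.09 and -0.0030 ± 0.08, and MSBP, which encodes a heme-binding membrane protein, by 0.14 ± 0.07. The reductase genes Cpr and dare were not analysed here.

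Of 7 measured heme synthesis genes, 6 had a positive difference and 1, Alas, a negative one. Of the 7, 3 rose, 1 fell and 3 did not pass, with a median difference of 0.20, where 15.8% of all genes rose and 10.7% fell. Alas, which encodes the first and rate-limiting enzyme, 5-aminolevulinate synthase, stood at 10.41, 10.43 and 10.35 in aged heads, against 10.85, 10.87 and 10.74 in young heads, and fell by 0.42 ± 0.07 (adjusted p = 0.00535). Pbgs, of the next step, stood at 7.21, 7.16 and 7.15 in aged heads, against 6.52, 6.52 and 6.62 in young heads, and rose by 0.62 ± 0.06 (adjusted p = 0.00123). Neither gene's ages overlapped. Uros1 rose by 0.43 ± 0.10 and Coprox by 0.30 ± 0.08. The call of Uros1 was lost without any single aged array (adjusted p = 0.0626 to 0.0753), and that of Coprox without each array except young replicate 3 (0.0669 to 0.125).

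Of 9 transcription regulators of xenobiotic and hormone response, 3 rose and 0 fell (limma, with 5 passing an unadjusted p under 0.05, all higher), with a median difference of 0.16, where 15.8% of all genes rose and 10.7% fell. The 3 belong to the oxidative and xenobiotic stress pathway: maf-S (0.29 ± 0.07), the small Maf partner of cnc, Keap1 (0.29 ± 0.07), its inhibitor, and cnc itself (0.27 ± 0.07). These rises were small and their calls were lost with single arrays left out. For maf-S that held without aged replicate 1 (adjusted p = 0.0874) or 3 (0.0677), for Keap1 without each array except young replicate 1 (0.0516 to 0.0810), and for cnc without each array except young replicate 2 (0.0800 to 0.129). With arrays centred on their medians, Keap1 (0.0676) and cnc (0.0641) did not pass. The xenobiotic nuclear receptor gene Hr96 differed by 0.16 ± 0.07 and did not pass, nor did Hr38, EcR, usp, ss or tgo.

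Most P450s of ecdysone synthesis carry names other than Cyp, Cyp6t3 being an exception, and these were read as a separate list with nvd and sro. All 8 lay below the median level at both ages, between 2.71 and 4.26 on average in aged heads and between 2.72 and 4.28 in young heads. The P450 genes spo, spok, phtm, dib, sad and shd differed by -0.02 to 0.11 and did not pass. Of the 8, 1 passed as higher and 0 as lower, where 15.8% of all genes rose and 10.7% fell. The 1 that passed was the oxygenase gene nvd, which differed by 0.30 ± 0.06 (adjusted p = 0.0164) within the range near background. It lost its call without young replicate 3 or without aged replicate 1 or 3 (0.0532 to 0.0725).

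Of 11 genes of cuticular hydrocarbon synthesis, the pathway that Cyp4g1 completes, 1 rose, 2 fell and 8 did not pass, counts not far from the shares of all genes (15.8% and 10.7%). FarO, which encodes a fatty acyl-CoA reductase of oenocytes, stood at 4.73, 4.60 and 4.89 in aged heads, against 6.70, 6.47 and 6.73 in young heads. The aged level lay below the median level, so the fall of 3.72-fold (-1.90 ± 0.10, adjusted p = 9.21e-05) may be compressed. It was as large without young replicate 2 (-1.98 ± 0.10). The fatty acid elongase gene bond fell by 0.37 ± 0.07 and ACC, which encodes acetyl-CoA carboxylase, rose by 0.34 ± 0.07. The call of bond was lost without aged replicate 1 (adjusted p = 0.050), and that of ACC without aged replicate 1 (0.0560) or 2 (0.0521).

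**Figure D5:**
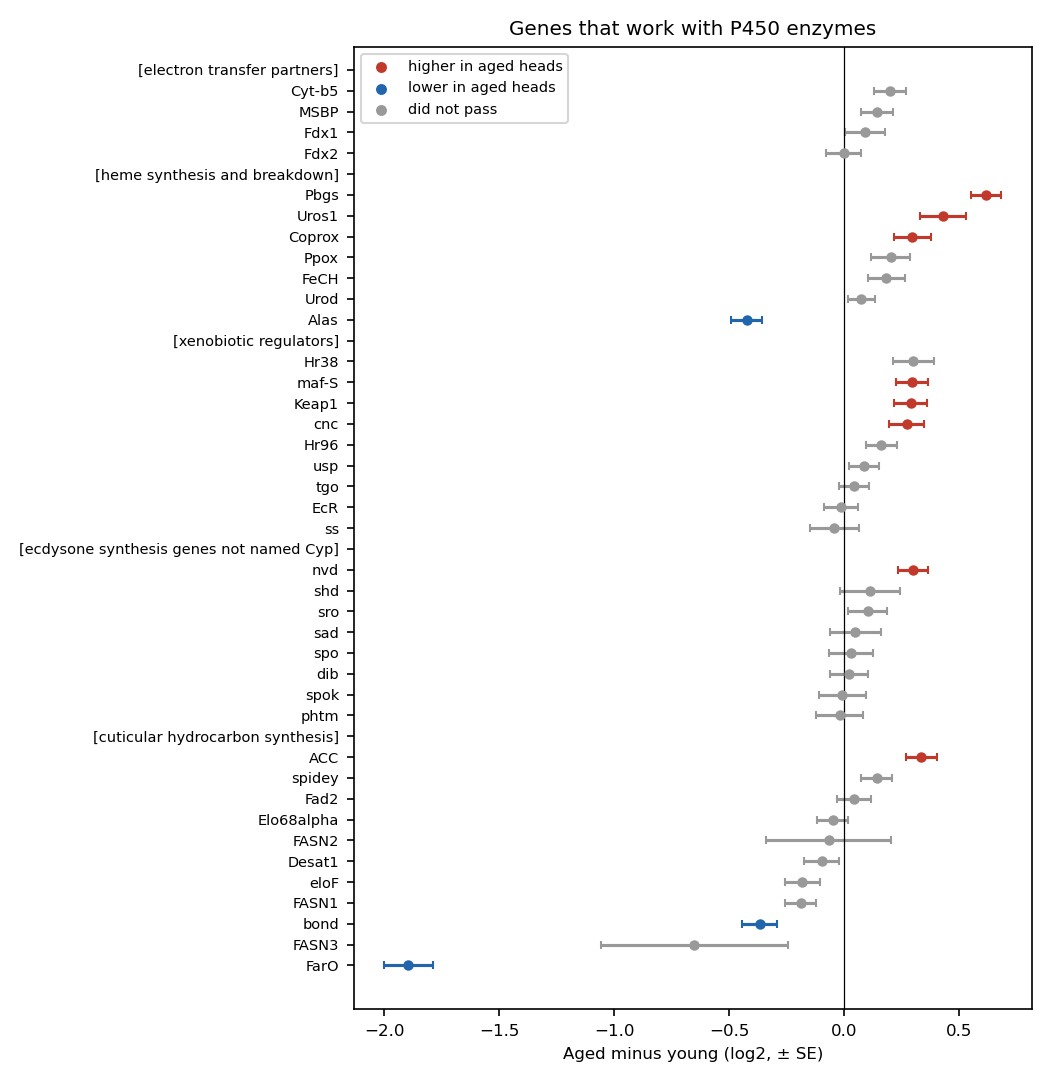
Difference between aged and young heads (log2, horizontal axis, bars ± SE) for the measured genes of electron transfer, heme synthesis, xenobiotic regulation, ecdysone synthesis and cuticular hydrocarbon synthesis, listed down the vertical axis; red points passed as higher in aged heads, blue as lower, and grey did not pass. FarO, at -1.90, lies far from the other genes, and Pbgs and Alas stand on opposite sides of 0.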

How the data were processed

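Values are log2 RMA expression values as deposited by the authors, 1 table for 6 arrays; per the submitters' processing notes RMA and limma were used, with version and options not given in the sources used here. This method corrects background and normalizes arrays to a common distribution, which sets aside any change in total messenger RNA. The 183 control probe sets were left out of tests. Symbols came from the platform annotation of each probe set, updated through gene identifiers in RefSeq's table (Release 6 plus ISO1 MT, names and neighbours only), in which all 81 P450 genes matched. Of their probe sets, 7 end in _a_at and 0 in _s_at or _x_at.

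The age comparison used all 6 arrays without covariates (lmFit and eBayes of limma 3.58.1, R 4.3.3), adjusted over 18769 probe sets by Benjamini-Hochberg at 0.05, and checked on simulated data. The P450 genes, lists and alternatives were chosen with earlier results of these data known. Any P450 gene that passed, or that is on a role list, may be named; of those that passed, up to 4 per family with the largest difference are given on every array, and some role-list genes too. Names outside that rule are marked. The planned search of promoters for motifs was not run, as no sequences were used here. Array-level alternatives were a robust trend, a level filter, centring, quantile normalization, array weights, probe set choices, the replicate number as a block, and arrays left out.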

Additional observations from a re-analysis of the deposited data

How the results depend on the processing

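The count of P450 genes that rose was 26 to 31 with 1 array left out 27 with arrays centred on their medians, 35 with the robust trend and 34 with array weights, against 32, and it was 0 in the test against a 2-fold threshold. The count that fell was 2 to 4 with 1 array left out, 6 with array weights, 2 with the replicate number as a block, 2 without young replicate 2 and aged replicate 3 together, and 0 against the 2-fold threshold. Of the 36 P450 genes that passed, 27 kept their call in all alternatives run for them other than that threshold, 9 lost it in some and 0 reversed; the level filter removed 4 of the 36, which have no value there. Same-numbered arrays did not deviate together (r = 0.103, -0.019 and -0.056 for replicates 1, 2 and 3), so the labels' numbers were not read as pairs, and under the block, 33 of the 36 calls were kept, 3 lost (Cyp18a1, Cyp49a1 and Cyp313a1) and 1 gained.

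Counts of the related lists moved more. Regulators that rose numbered 0 to 3 with 1 array left out, 1 after centring, 1 after quantile normalization, 1 without _s_at and _x_at probe sets, 0 with the replicate block and 0 with the 2 arrays left out. Heme synthesis genes that rose numbered 1 to 3 with 1 array left out, 1 after quantile normalization and 1 with the 2 arrays left out. Electron transfer partners that rose numbered 1 with the robust trend and 1 above the median level, against 0. Ecdysone synthesis genes that rose numbered 0 to 1 with 1 array left out, 0 above the median level and 0 with the 2 arrays left out. Hydrocarbon synthesis genes that rose numbered 0 to 1 and those that fell 1 to 2 with 1 array left out, and 1 fell without _s_at and _x_at probe sets and 1 with the 2 arrays left out. The filter removes dim genes and left-out arrays reduce the sample. Without _s_at and _x_at probe sets, cnc, Keap1 and bond had no value, because their own probe sets end in _s_at. The cause of the other changes was not tested.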

Other observations

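Many P450 genes lie side by side in the fly genome, and 42 of the 81 belong to 15 runs of adjacent P450 genes with no other protein-coding gene between them in RefSeq's table. Of these 42, 21 were higher and 1 lower in aged heads, while 11 of the 39 genes outside runs were higher and 3 lower. Among all genes, 15.8% were higher and 10.7% lower. The difference between the genes in runs and those outside was not tested, and adjacent genes can share sequence that probes bind. In 4 runs every measured gene rose, namely Cyp309a1 with Cyp309a2, Cyp28d1 with Cyp28d2, Cyp9b1 with Cyp9b2, and Cyp6a13 with Cyp6a14. In the longest run, of 9 genes from Cyp6a22 to Cyp317a1, 3 rose (Cyp6a22, Cyp6a21 and Cyp6a8) and all 9 differences were positive, from 0.02 to 0.86. In the run of Cyp4d14, Cyp4d2 and Cyp4ae1, neighbours went opposite ways, with 0.83 at Cyp4d14, -0.21 at Cyp4d2, which did not pass and was named after its value was seen, and -1.07 at Cyp4ae1.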
